A study of Mus musculus with 10 samples.

Results

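The transcripts described here are those of 10 keratin genes of the mammary epithelium: Krt8, Krt18, Krt19 and Krt7 of luminal cells, Krt5, Krt14, Krt15 and Krt17 of basal cells, and Krt6a and Krt16, which are induced in stressed stratified epithelia. They were chosen by gene symbol, and each matched 1 of the 35275 Ensembl genes in the deposited table. The RNA was from whole mammary glands of inbred BALB/c mice on lactation day 3. The glands of the 4th pair received, through the teat opening, 50 µL of lipopolysaccharide (LPS, the endotoxin of E. coli 055: B5, at 0.4 mg/mL) on one side and sterile phosphate-buffered saline (PBS) on the other. Glands were taken 12 h later, and 5 LPS and 5 PBS libraries were sequenced. The labels give n = 9 for the experiment and do not say which animal gave which library, so the p-values given here rest on gland-to-gland spread only. A PBS gland had an LPS gland in the same mouse, and no gland without an injection was among the libraries. Libraries held 15734303 to 18869545 counted reads. PBS replicates 2 and 4 and LPS replicate 3 stood apart by their B and T cell transcripts, with summed marker levels of 74.4 FPKM in that LPS library and 169.7 and 158.7 FPKM in those PBS libraries, against 1.13 to 15.5 FPKM in the other 4 LPS libraries and 3.52 to 29.4 FPKM in the other 3 PBS libraries.

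Keratins are the intermediate filament proteins of epithelial cells. A filament is built from equal amounts of a type I and a type II keratin, which pair as heterodimers. In the mammary gland the luminal cells that make milk carry the simple epithelial pair, Krt8 (type II) and Krt18 (type I), with Krt19 (type I) and Krt7 (type II) as further luminal keratins. The contractile myoepithelial cells around them carry the basal pair, Krt5 (type II) and Krt14 (type I). Krt17 and Krt15 are type I keratins of basal cells, and the pair of Krt6a (type II) and Krt16 (type I) is switched on in wounded or hyperproliferative epidermis.

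The type II genes and Krt18 lie together on chromosome 15, and the other type I genes on chromosome 11, in GENCODE M21 on build GRCm38 (mm10). All 10 are protein-coding. Krt8 (ENSMUSG00000049382) spans chr15:101996698-102004482 on the minus strand, and Krt18 (ENSMUSG00000023043) spans chr15:102028180-102032027 on the plus strand, with 23697 bp between them. Krt5 (ENSMUSG00000061527) lies at chr15:101707070-101712898 on the minus strand, and Krt14 (ENSMUSG00000045545) at chr11:100203162-100207548 on the minus strand. RefSeq start regions (GRCm38.p6) were at hand for 5 of the 10 genes. That of Krt14 lies 1518 bases from the start of any protein-coding GENCODE transcript of the gene and is not shown. The other 4 lie 140 (Krt8), 36 (Krt18), 7 (Krt5) and 1 (Krt7) bases from one. They are given because the changes of these genes are compared below, from 80 bases before the annotated start through the first 20 bases from it. They are written 5′ to 3′ on the gene's strand, with TATA-type letters (TATAA or ATAAAA) in capitals:
Krt8, chr15:102004323-102004422, minus strand: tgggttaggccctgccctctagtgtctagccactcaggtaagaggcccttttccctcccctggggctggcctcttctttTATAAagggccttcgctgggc
Krt18, chr15:102028136-102028235, plus strand: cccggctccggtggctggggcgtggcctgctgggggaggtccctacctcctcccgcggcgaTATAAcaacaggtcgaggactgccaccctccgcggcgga
Krt7, chr15:101412323-101412422, plus strand: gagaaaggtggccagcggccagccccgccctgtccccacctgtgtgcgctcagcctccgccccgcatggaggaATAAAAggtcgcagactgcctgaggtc
Krt5, chr15:101712886-101712985, minus strand: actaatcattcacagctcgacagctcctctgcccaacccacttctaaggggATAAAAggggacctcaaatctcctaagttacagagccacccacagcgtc

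Each of the 4 stretches held TATA-type letters on the gene's strand, as did 9.77% of 32851 RefSeq start regions over the same 100 bases. The letters began 29 bases before the annotated start in Krt5, 19 in Krt18, 7 in Krt7 and 1 in Krt8. Over the full 300 bases and both strands, none of these 4 regions held the AP-1 letters TGANTCA or the STAT letters TTCNNNGAA, which stood in 7.81% and 8.3% of all regions. The GC box letters GGGCGG were found in Krt7 and not in the other 3, against 35.7% of all regions. TATAA and ATAAAA can overlap, and a run of letters is not a measured binding site.

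Levels are given in FPKM, fragments per kilobase of gene, scaled to the number of counted reads in the library. A level per length can be compared between genes. Krt8 and Krt18 had the highest levels in both groups. In LPS glands Krt8 was at 188.4 ± 34.6 FPKM and Krt18 at 172.0 ± 14.5 FPKM (SD, n = 5), and in PBS glands Krt8 was at 129.5 ± 14.2 FPKM and Krt18 at 138.0 ± 15.4 FPKM (SD, n = 5), so the pair did not differ beyond its spread in either group. Krt19 followed at 62.7 ± 9.40 FPKM in LPS glands and 62.6 ± 8.50 FPKM in PBS glands. Krt14, Krt17 and Krt5 formed the next tier, at group means of 19.8 to 24.7 FPKM in LPS glands and 12.8 to 18.3 FPKM in PBS glands. Krt17 overlapped both others in range in either group. Krt5 was at 0.712 to 0.886 times the level of Krt14 in LPS glands and at 0.611 to 0.775 times in PBS glands, below it in every library, and in PBS glands the ranges of Krt5 and Krt14 did not overlap. Krt7 was lower and Krt15 lower again, and Krt6a and Krt16 were at or next to 0. The 4 basal keratins made up 12.5 to 14.4% of the summed FPKM of the 10 genes in LPS glands and 11.6 to 14.7% in PBS glands, so the ranges overlapped.

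**Figure D1:**
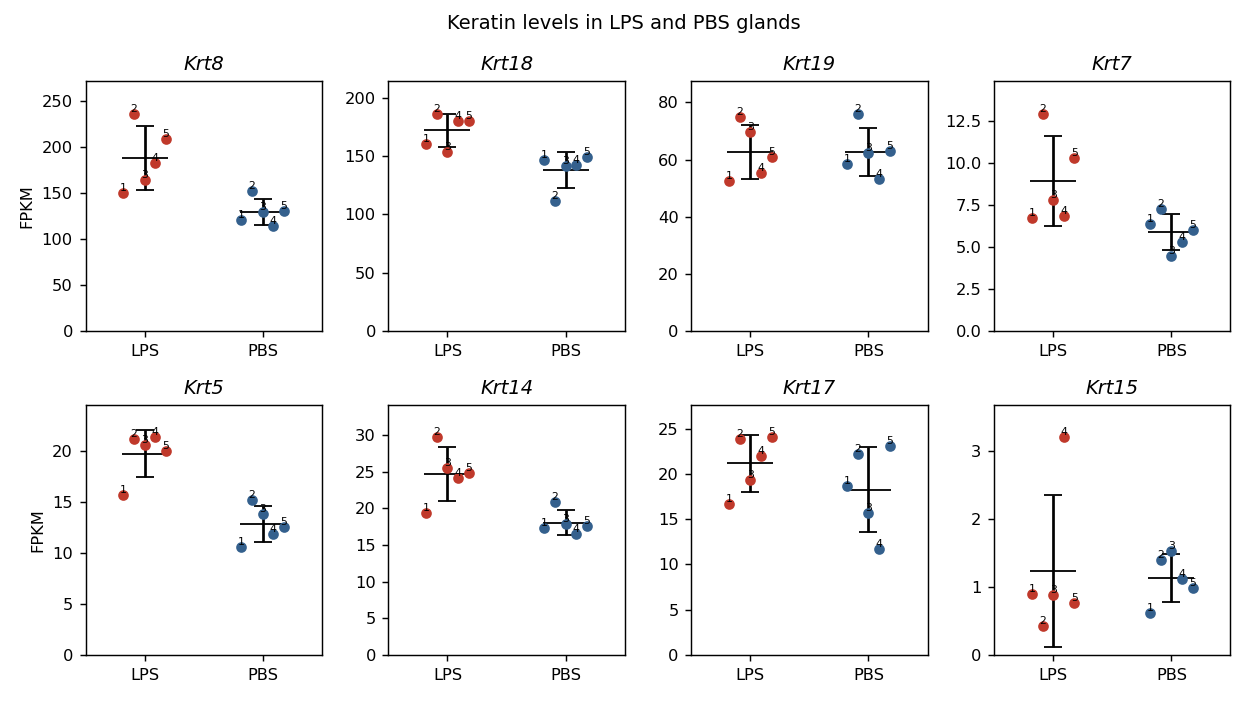
FPKM of 8 keratins in each library, with LPS glands left of PBS glands; points are libraries labelled by replicate number, and bars are the mean ± SD of 5 libraries. Krt5 and Krt18 are the genes whose 5 LPS values all lie above the 5 PBS values; Krt15 has 1 high LPS library, at 3.21 FPKM.

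Of the luminal keratins, Krt8 rose in LPS glands. Krt8 was at 150.2, 236.3, 163.8, 183.2 and 208.6 FPKM in LPS replicates 1 to 5, against 121.2, 151.9, 129.4, 114.0 and 130.9 FPKM in PBS replicates 1 to 5. The lowest LPS gland stood just under the highest PBS gland, and the other 4 LPS glands were above all PBS glands. The ratio of means was 1.46, and the log2 change, LPS minus PBS on log2(FPKM + 1), was 0.53 ± 0.13 (SE; limma adjusted p = 0.0445). The call did not survive the loss of any 1 of 8 libraries: the adjusted p was 0.110, 0.0588, 0.0724 and 0.0874 without LPS replicates 2, 3, 4 and 5, and 0.117, 0.0721, 0.121 and 0.0848 without PBS replicates 1, 3, 4 and 5. It also ended with median-of-ratios scaling (0.0720), quantile normalization (0.133), rescaling to the sum outside milk protein genes (0.212), no filter (0.106) and edgeR on recovered reads (0.0543), while DESeq2 on those reads called it (0.00722); its log2 change was between 0.31 and 0.60 in all 21 alternatives. Reads of Krt8 could be shared with a processed pseudogene: 26.9% of the 50-base words and 16.9% of the 100-base words in its transcript also occur in Krt8-ps. Gm36026, a lincRNA gene on the other strand, overlaps the Krt8 gene model.

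Krt18, the filament partner of Krt8, was at 159.9, 186.3, 153.2, 180.1 and 180.2 FPKM in LPS replicates 1 to 5, against 146.2, 111.2, 141.3, 142.0 and 149.6 FPKM in PBS replicates 1 to 5. Every LPS gland was above every PBS gland, by a narrow margin. The ratio of means was 1.25 and the log2 change 0.32 ± 0.10, which did not pass (limma adjusted p = 0.113; 95% confidence interval 0.10 to 0.54). PBS replicate 2 held the lowest Krt18 value of all libraries and the highest Krt8 value among PBS glands. Krt18 has almost no sequence shared with other genes, at 0.72% of its 50-base words.

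Krt19, a type I keratin that lacks the usual tail domain, had means within 0.1 FPKM of each other. It was at 52.6, 74.8, 69.7, 55.4 and 61.0 FPKM in LPS replicates 1 to 5, against 58.4, 76.1, 62.3, 53.2 and 63.1 FPKM in PBS replicates 1 to 5. The groups covered nearly the same range. Its log2 change was -0.00 ± 0.12 (limma adjusted p = 0.998; 95% confidence interval -0.26 to 0.26), and its sign changed between alternatives. Krt7, a type II keratin of ducts and glands, was at 6.71, 12.9, 7.79, 6.83 and 10.3 FPKM in LPS replicates 1 to 5, against 6.39, 7.25, 4.45, 5.31 and 5.98 FPKM in PBS replicates 1 to 5. LPS replicates 2 and 5 were the 2 highest, and the groups overlapped. The log2 change of Krt7 was 0.50 ± 0.17 (limma adjusted p = 0.146; 95% confidence interval 0.13 to 0.87). Krt7 passed in 1 alternative only, a block on replicate number (limma adjusted p = 0.0231). The labels do not say that equal numbers share a mouse. Part of the Krt7 gene model is overlapped by a gene on the other strand, Gm671, and strand is not stated for the counting.

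Of the basal keratins, Krt5 rose in LPS glands. Krt5 was at 15.7, 21.1, 20.6, 21.3 and 20.04 FPKM in LPS replicates 1 to 5, against 10.6, 15.2, 13.8, 11.9 and 12.6 FPKM in PBS replicates 1 to 5. Every LPS gland was above every PBS gland, with LPS replicate 1 well below the other 4 LPS glands. The ratio of means was 1.54, and the log2 change was 0.59 ± 0.11 (limma adjusted p = 0.0163). The call was lost when either LPS replicate 2 (adjusted p = 0.0503) or PBS replicate 4 (0.0519) was left out, and with rescaling to the sum outside milk protein genes (0.0891). With 7 libraries, leaving out the 3 rich in B and T cell transcripts, the adjusted p was 0.102 for Krt5 and 0.134 for Krt8, with log2 changes of 0.62 and 0.59. On recovered reads both edgeR (0.00973) and DESeq2 (4.12e-05) called Krt5, and its log2 change was between 0.39 and 0.67 in all 21 alternatives. Of the 50-base words of Krt5, 12.2% occur in other genes, with 6.98% in Krt6a. Gm44323, a miRNA gene on the other strand, overlaps the Krt5 gene model.

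Krt14, the partner of Krt5, was at 19.4, 29.7, 25.6, 24.1 and 24.9 FPKM in LPS replicates 1 to 5, against 17.3, 20.9, 17.8, 16.5 and 17.6 FPKM in PBS replicates 1 to 5. LPS replicate 1 lay below PBS replicate 2, and the other 4 LPS glands were above all PBS glands. The ratio of means was 1.37 and the log2 change 0.43 ± 0.11, just outside the threshold (limma adjusted p = 0.0568; 95% confidence interval 0.19 to 0.66). It passed when LPS replicate 1 (adjusted p = 0.0148) or PBS replicate 2 (0.0426) was left out, and with a filter on a mean FPKM of 5 (0.0425). On recovered reads it passed in DESeq2 (0.0117) and not in edgeR (0.0503). It also passed with a block on replicate number (limma adjusted p = 0.00938), though the labels do not say that equal numbers share a mouse. Of the 50-base words of Krt14, 14.4% occur in other genes, with 11.4% in Krt16. In the authors' deposited table of changed genes, 3 of the 10 keratins are listed, all as higher in LPS glands: Krt5 with a log2 change of 0.54 (adjusted p = 4.59e-05), Krt8 with 0.45 (0.00892) and Krt14 with 0.37 (0.0129). That list holds 608 higher genes, 1.72% of the genes in the full table. The full table includes 12216 genes at 0 in all libraries, which lowers this share.

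Krt17 and Krt15, further type I keratins of basal cells, did not separate the groups. Krt17 was at 16.6, 23.9, 19.3, 22.0 and 24.04 FPKM in LPS replicates 1 to 5, against 18.7, 22.2, 15.7, 11.7 and 23.0 FPKM in PBS replicates 1 to 5. The PBS glands alone spanned almost the whole range of both groups. Its log2 change was 0.23 ± 0.17 (limma adjusted p = 0.566; 95% confidence interval -0.14 to 0.59). Krt15 was at 0.904, 0.422, 0.884, 3.21 and 0.763 FPKM in LPS replicates 1 to 5, against 0.618, 1.39, 1.53, 1.12 and 0.992 FPKM in PBS replicates 1 to 5. One LPS gland, replicate 4, was above all other libraries, and the other 4 LPS glands were at or below the PBS median of 1.12 FPKM. Krt15 was below the filter for testing (at least 1 FPKM in at least 5 of the 10 libraries).

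The pair of Krt6a and Krt16 was next to undetected. Krt6a had 4 reads in LPS replicate 2 and 1 read in PBS replicate 3, and 0 in the other 8 libraries. Krt16 had 1 read in PBS replicate 1 and 0 in the other 9. A count of 0 allows up to 3 reads, which is 0.0705 to 0.0846 FPKM for Krt6a and 0.102 to 0.122 FPKM for Krt16 depending on the library. No fold is given at these counts, which cover counting error only. Reads of Krt6a could also be lost between copies: 43.6% of its 50-base words occur in Krt6b, which was at 0 in all libraries, and 12.4% of those of Krt16 occur in Krt14.

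Of the 7 keratins tested, 2 were called higher (Krt5 and Krt8) and 0 lower, where 2.63% of the 11414 genes tested were called higher and 0.605% lower. The LPS glands lay wholly above the PBS glands for 2 of the 7 (Krt5 and Krt18) and wholly below for 0, against 3.53% and 1.22% of all genes tested. On recovered reads edgeR called 1 of the 7 higher (Krt5), where 2.67% of all genes were called higher, and DESeq2 called 3 (Krt5, Krt8 and Krt14), where 4.78% were. The median log2 change of the 7 was 0.43, that of all tested genes 0.05. The 3 keratins that did not pass the filter (Krt15, Krt6a and Krt16) are not in these counts. Rescaling to the sum outside milk protein genes moved the median of all genes to -0.13, and the share of higher among all calls went to 26.9% with that scaling, 68.8% with median-of-ratios and 61.7% with quantile normalization, against 81.3% with FPKM as deposited. Under the milk protein rescaling the log2 changes were 0.39 for Krt5, 0.31 for Krt8, 0.31 for Krt7, 0.22 for Krt14, 0.10 for Krt18, 0.02 for Krt17 and -0.21 for Krt19. The sum used there includes S100a8 and S100a9, at means of 7386 and 3866 FPKM in LPS glands and 873.1 and 182 FPKM in PBS glands. The rescaling therefore does more than take out milk protein reads, and the part of each in the shift was not tested. In whole glands, a higher level per cell and a larger share of the cells that carry a keratin cannot be told apart.

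**Figure D2:**
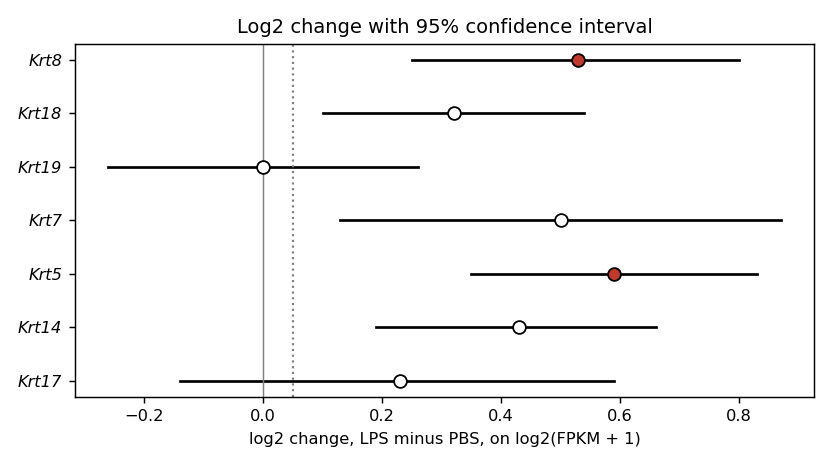
Log2 change, LPS minus PBS, of the 7 tested keratins, with 95% confidence intervals of the limma fit; filled points passed an adjusted p below 0.05, and the dotted line is the median of all tested genes, 0.05. Krt8 and Krt5 are filled, at 0.53 and 0.59, and the interval of Krt19 is centred on 0.

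**Figure D3:**
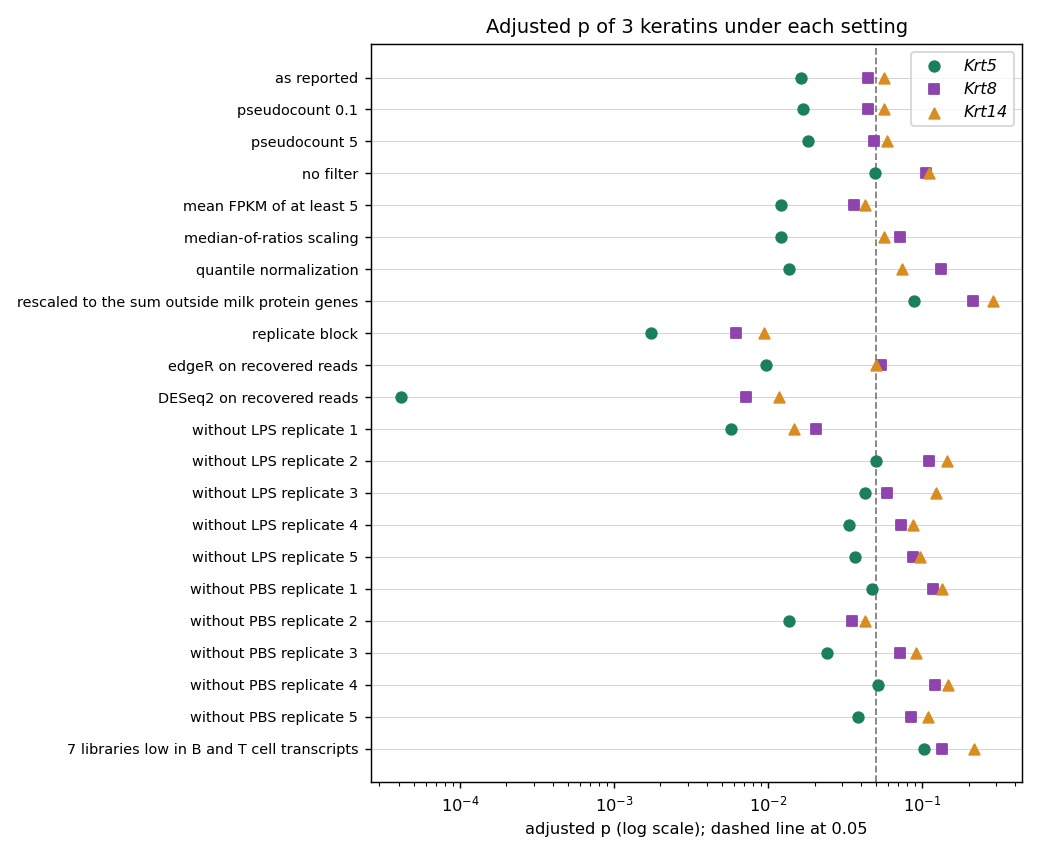
Adjusted p (log axis) of Krt5, Krt8 and Krt14 as reported and under 21 alternatives, with the threshold of 0.05 dashed. Krt5 stays left of the line in all but 4 of them, Krt8 in 7 of 21, and Krt14 crosses to the left in 5, of which the replicate block is 1.

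Ratios within a library asked whether partner keratins moved alike. They were chosen with earlier results of these data known, which the p-values do not take into account. The test was an exact permutation test (two-sided, 5 against 5 libraries) whose smallest possible p is 0.00794, with adjustment over 3 ratios. The log2 ratio of Krt8 to Krt18 was 0.12 ± 0.17 in LPS glands and -0.09 ± 0.31 in PBS glands (SD, n = 5; exact p = 0.230, adjusted 0.345). In PBS replicate 2 this ratio was 0.45, above every LPS gland, and without that library the difference grew to 0.34 from 0.21 (adjusted exact p = 0.0476). The log2 ratio of Krt5 to Krt14 was -0.31 ± 0.11 in LPS glands and -0.47 ± 0.12 in PBS glands (SD, n = 5; exact p = 0.0397, adjusted 0.119), and the adjusted exact p was 0.0476 without LPS replicate 2. The log2 ratio of Krt5 to Krt8, which sets a basal against a luminal type II keratin, was -3.18 ± 0.20 in LPS glands and -3.24 ± 0.11 in PBS glands (SD, n = 5; exact p = 0.532), and its difference changed sign with a pseudocount of 5. None of the 3 differences passed with all 10 libraries. Each 0.0476 is the lowest adjusted exact p of its ratio when single libraries were left out. With fewer libraries the smallest possible p is above 0.00794. With 1 library left out, 0.0476 is what that smallest p becomes after adjustment when 1 of the 3 ratios reaches it.

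Summed by type, the type II members (Krt8, Krt7, Krt5 and Krt6a) were at 0.692 to 0.858 times the summed FPKM of the type I members in LPS glands, with a median of 0.742. In PBS glands this ratio was 0.573 to 0.752, with a median of 0.588. PBS replicate 2 gave the top of the PBS range, and the groups overlapped. The summed FPKM of the 10 genes was 422.0 to 585.6 in LPS glands and 355.7 to 406.1 in PBS glands, with Krt8 taking 35.6 to 40.4% in LPS glands and 31.95 to 37.4% in PBS glands. These sums are descriptions and were not tested.

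**Figure D4:**
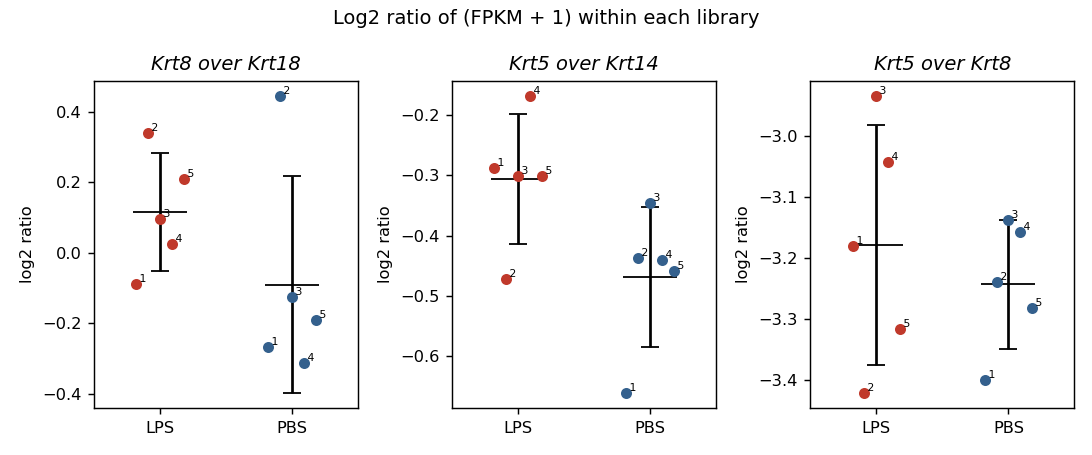
Log2 ratio of (FPKM + 1) of Krt8 over Krt18, Krt5 over Krt14 and Krt5 over Krt8 in each library, with LPS glands left of PBS glands; points are libraries labelled by replicate number, and bars are mean ± SD of 5. PBS replicate 2 stands apart at 0.45 in the first panel.

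Of the 44 other keratin genes in the table, 0 passed the filter and 21 were at 0 in all libraries. The highest value of any of them in any library was 1.49 FPKM, of Krt10, the type I keratin of differentiating epidermis. Krt10 was at 0.620 to 1.49 FPKM in LPS glands and 0.806 to 1.22 FPKM in PBS glands, so the ranges overlapped. Krt80 was at 0.568 to 0.932 FPKM in LPS glands and 0.635 to 0.833 FPKM in PBS glands, and Krt23 at 0.339 to 0.705 FPKM in LPS glands and 0.492 to 0.989 FPKM in PBS glands. Krt87, Krt20 and Krt79 were the next by mean level, with highest values of 0.855, 0.412 and 0.202 FPKM in LPS glands and 0.411, 0.259 and 0.169 FPKM in PBS glands.

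Keratin filaments are anchored at desmosomes and hemidesmosomes. Of 24 such genes 19 were tested, and 1 was called higher and 0 lower (median log2 change 0.21), where 2.63% of all tested genes were called higher and 0.605% lower. The called gene was Cd151, a tetraspanin that associates with laminin-binding integrins. It was at 73.5, 83.2, 74.0, 68.6 and 71.6 FPKM in LPS replicates 1 to 5, against 51.6, 53.9, 60.8, 51.4 and 58.4 FPKM in PBS replicates 1 to 5 (log2 change 0.42 ± 0.08, limma adjusted p = 0.0188). Every LPS gland was above every PBS gland. The Cd151 call was lost without LPS replicate 2 (adjusted p = 0.0550), PBS replicate 1 (0.0575) or PBS replicate 4 (0.0625), and with each of the 3 other scalings (0.0588 to 0.187), edgeR (0.0509) and the 7 libraries (0.205). The authors' deposited table lists Cd151 and also Pkp3, the desmosomal plakophilin 3, as higher, with log2 changes of 0.34 (adjusted p = 0.0181) and 0.37 (0.0178). Of 14 other intermediate filament genes 7 were tested, and 1 was called higher and 0 lower, against the same 2.63% and 0.605% of all genes. The called gene was Sync, which encodes syncoilin, with means of 7.03 ± 2.12 FPKM in LPS glands and 2.10 ± 0.797 FPKM in PBS glands (SD, n = 5; log2 change 1.37, limma adjusted p = 0.00641; 0.0708 with the 7 libraries). Lmnb1 was not called (limma adjusted p = 0.0874), and the authors' deposited table lists it as higher, with a log2 change of 0.54 (adjusted p = 0.0165).

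Markers of the cell types that carry these keratins were set beside them. Of 13 tested luminal markers, 1 was called higher (Kit, the stem cell factor receptor of luminal progenitors; log2 change 0.62 ± 0.13, limma adjusted p = 0.0234) and 0 lower, against the same 2.63% and 0.605% of all genes, and their summed FPKM was 1149 to 1439 in LPS glands and 1161 to 1333 in PBS glands. The Kit call was lost without any 1 of 5 libraries: the adjusted p was 0.0696 and 0.0590 without LPS replicates 2 and 3, and 0.0592, 0.0693 and 0.0615 without PBS replicates 1, 4 and 5. It was also lost with no filter (0.0698), rescaling outside milk proteins (0.0704) and the 7 libraries (0.0802). The Kit call held with median-of-ratios scaling (0.0181), with quantile normalization (0.01945), and on recovered reads in edgeR (0.0133) and DESeq2 (0.000168). Kit is also in the authors' deposited table as higher, with a log2 change of 0.59 (adjusted p = 0.000136). Of 10 tested myoepithelial markers 0 were called. Their median log2 change was 0.15, and single changes ran from -0.13 (Snai2) to 0.68 (Actg2, limma adjusted p = 0.0954). The summed FPKM of the list was 653.8 to 817.5 in LPS glands and 507.3 to 667.3 in PBS glands. Acta2 and Tagln, the listed genes of highest mean level, weigh most in this sum. Acta2, the smooth muscle actin of myoepithelial cells, had a log2 change of 0.32 ± 0.12 (limma adjusted p = 0.172), and Tagln, an actin-binding protein of contractile cells, one of 0.40 ± 0.11 (limma adjusted p = 0.0649). Tagln passed when PBS replicate 2 was left out (adjusted p = 0.0263) and in DESeq2 on recovered reads (0.0375), and the authors' deposited table lists it as higher, with a log2 change of 0.32 (adjusted p = 0.0415). The part of these shifts in the keratin values was not tested.

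Skin around the teat also carries Krt5, Krt14 and Krt15. Of 13 epidermis markers in the table, 5 were at 0 in all libraries (Krt2, Flg2, Calm4, Lce1a1 and Hrnr), and Krt1, the defining type II keratin of differentiating epidermis, was at most at 0.0513 FPKM in LPS glands and 0.153 FPKM in PBS glands. Krtdap was at 0 in all LPS glands and at up to 0.378 FPKM in PBS glands. Lor was at most at 0.493 FPKM in LPS glands and 0.562 FPKM in PBS glands, and Ivl at 0.0312 and 0.0336 FPKM. The summed FPKM of the list was 54.8 to 85.99 in LPS glands and 36.95 to 58.8 in PBS glands, almost all of it from Sbsn and Dmkn. Only these 2 were tested, and 1 was called higher and 0 lower. Of all tested genes 2.63% were called higher and 0.605% lower. Dmkn, which encodes the secreted protein dermokine, was at 31.3, 39.8, 32.95, 23.5 and 35.8 FPKM in LPS replicates 1 to 5, against 12.8, 14.6, 8.03, 12.1 and 12.6 FPKM in PBS replicates 1 to 5. The groups were well apart, and Dmkn was called higher (log2 change 1.37 ± 0.16, limma adjusted p = 0.00161) in all 21 alternatives. Sbsn, which encodes suprabasin, had a log2 change of 0.12 ± 0.19 (limma adjusted p = 0.834).

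Transcripts used as markers of other cell types were as follows. Of 8 tested neutrophil markers 5 were called higher, where 2.63% of all tested genes were. Mmp9, Camp and Ngp were tested and not called, with log2 changes of 0.78, 0.72 and 0.45. The summed FPKM of the list was 7375 to 14200 in LPS glands and 709.6 to 1873 in PBS glands, and S100a8 and S100a9, the subunits of calprotectin, made up 99.48 to 99.88% of it in LPS glands and 97.9 to 99.4% in PBS glands. The sum therefore follows these transcripts and is not a count of neutrophils. Which cells carried S100a8 and S100a9 was not tested. The other 8 markers summed to 17.3 to 57.4 FPKM in LPS glands and 8.399 to 17.9 FPKM in PBS glands. Among these, the called genes Csf3r and Cxcr2 (both named after their values were seen) and Retnlg had ratios of means of 3.5, 4.42 and 3.98, and their calls were lost without any 1 of 7, 8 and 8 libraries, at adjusted p of up to 0.0885, 0.126 and 0.119. On recovered reads edgeR (adjusted p = 0.0142, 0.0219 and 0.02955) and DESeq2 called each of them. Each is also listed as higher in the authors' deposited table. Tested milk protein genes (8), macrophage markers (7), adipocyte markers (7), fibroblast markers (6), endothelial markers (5) and B and T cell markers (1) had 0 called in either direction. The macrophage markers had a median log2 change of -0.44. Among them, Csf1r is in the authors' deposited table as lower, with a log2 change of -0.56 (adjusted p = 0.0360). The milk protein genes had a median log2 change of -0.32, and their summed FPKM was 207900 to 291600 in LPS glands and 249500 to 339700 in PBS glands. The authors' deposited table lists Csn2 and Csn3, the beta and kappa caseins, as lower in LPS glands, with log2 changes of -0.59 (adjusted p = 0.00611) and -0.46 (0.0274). FPKM is scaled to all counted reads, milk protein reads included, and the keratin values rescaled to the sum outside these genes are given above. The part of these cells in the keratin values was not tested beyond the fit without the 3 libraries rich in B and T cell transcripts.

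Deviations from the group means showed which transcripts varied with the keratins from gland to gland, over 10 libraries and as a description with no test. Krt14 moved most like Dsp (Pearson r = 0.982), then Atn1 (0.980) and Itga5 (0.957). Dsp encodes the desmosomal anchor of keratin filaments desmoplakin, and its mean was low, at 1.42 FPKM. Krt8 moved most like Cdh5 (0.957), which is in the list of endothelial markers, then Champ1 (0.951) and Actn1 (0.940). For Krt6a, with reads in 2 of 10 libraries, none was computed. Among the keratins, Krt14 and Krt19 had r = 0.90, Krt8 and Krt14 0.87, and the basal partners Krt5 and Krt14 0.80. The luminal partners Krt8 and Krt18 had r = 0.11. Libraries also share depth and composition, which enter these values.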

How the data were processed

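DESeq2 (listed as version 2), HTSeq 0.6.1, STAR 2.5 and the mouse build mm10 are named in the submitters' processing notes; their settings are not given in the sources used here. The authors deposited FPKM for 35275 genes. For 908 genes they called changed, the deposited table also gives raw read counts, a normalized signal (counts over 1 size factor per library), log2 fold changes and p-values. Library depth, from the deposited counts and FPKM, was 15734303 to 18869545 reads, and this depth gave whole reads for 23059 genes within 0.002 reads.

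Genes reaching 1 FPKM in 5 or more libraries were tested with limma 3.58.1 on log2(FPKM + 1), two-sided with an intensity trend, with calls at 0.05 after Benjamini-Hochberg adjustment over 11414 genes. This scale understates changes of low genes. The fit was laid out for FPKM, and edgeR 4.0.16 and DESeq2 1.42.0 ran on recovered reads as alternatives. The limma script was tested on simulated data. The members, the lists and the ratios were chosen with earlier results of these data known. Named genes were the 10 members, the other keratins of highest mean, called list genes of largest change and the most alike genes; other lists are given as counts. An Ensembl name table gave symbols for 34490 genes. Transcript words were compared over GENCODE M21.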

Additional observations from a re-analysis of the deposited data

Results flagged for a closer look

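In groups of 5 libraries, a highest or lowest value was noted when its gap to the next one exceeded 0.71 of the group's range. Of 25 groups of values examined, chance gives about 1 in 20 where values are normally distributed. This rate does not hold for Krt6a and Krt16, where a single library with reads is always flagged. The flags of Krt18 and of its ratio in PBS replicate 2 share 1 Krt18 value. Krt18 was lowest in PBS replicate 2, at 111.2 FPKM, and the log2 ratio of Krt8 to Krt18 was highest there, at 0.45. Krt5 was lowest among LPS glands in replicate 1, at 15.7 FPKM, a library that was also the lowest LPS library for Krt8, Krt19, Krt7, Krt14 and Krt17. Krt15 was highest in LPS replicate 4, at 3.21 FPKM, from 87 reads against 13 to 29 in the other LPS glands. Krt6a was above 0 in LPS replicate 2 (0.0978 FPKM, 4 reads) and in PBS replicate 3 (0.0262 FPKM, 1 read), and Krt16 in PBS replicate 1 (0.0353 FPKM, 1 read).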

How the results depend on the processing

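The number of genes called, 369, was 126 with no filter, 845 in DESeq2 on recovered reads, 1229 under the replicate block, 35 with the 7 libraries low in B and T cell transcripts, and 150 to 517 when single libraries were left out; 0.1 or 5 as pseudocount, a filter on a mean FPKM of 5, 3 other scalings and edgeR gave 339 to 476. Of the keratins, 2 were called; 1 was with no filter, median-of-ratios scaling, quantile normalization or edgeR, 0 with rescaling outside milk proteins or the 7 libraries, 4 with the replicate block (Krt7 and Krt14 added, at adjusted p of 0.0231 and 0.00938) and 0 to 3 when single libraries were left out. Beside these keratin counts, 1229 of the 11414 genes tested were called with the replicate block and 35 with the 7 libraries. With rescaling outside milk proteins, 128 were called higher and 348 lower. Fewer libraries also leave less to test. The cause of the other shifts was not tested. Same-numbered LPS and PBS libraries deviated together with r = 0.0993 to 0.494, and 3 of 5 LPS libraries correlated best with their own number. These values do not settle whether equal numbers share a mouse. The labels do not say so either, and for that reason the main fit has no block. The sign-flip test of the ratios by number cannot go below 0.0625. When single libraries were left out, differences in log2 ratio were 0.15 to 0.34 for Krt8 to Krt18, 0.11 to 0.20 for Krt5 to Krt14 and 0.00 to 0.12 for Krt5 to Krt8; the last was -0.04 with a pseudocount of 5. The log2 change of Krt19 was -0.07 to 0.07 when single libraries were left out. Depth limits Krt6a and Krt16, and counting intervals cover counting error only.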
